A study of Mus musculus with 32 samples.

Results

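Small nucleolar RNAs (snoRNAs) were followed across the small RNA libraries of mouse embryonic stem cells and of neurons induced from them. The members were the genes whose symbol starts with Snord, Snora or Scarna and whose estimated counts summed to at least 50 over the 12 small RNA libraries. Of 150 genes with such a symbol in the files, 128 met this minimum, among 28598 Ensembl genes with a count. They comprised 81 of 99 box C/D genes, 38 of 42 box H/ACA genes and 9 of 9 Cajal body genes (scaRNAs). Just inside the minimum were Snora78 with a total of 55.0 and Snora43 with 64.2, and just outside it were Snora65 with 45.5 and Snora28 with 44.9. None of the 13 snoRNA genes listed in the imprinted Dlk1-Dio3 domain carries such a symbol, so these were read under their own names, and 12 of the 13 reached a total of 50. The median annotated length was 78 bases for box C/D members (64 to 238), 133 bases for box H/ACA members (121 to 205) and 140 bases for scaRNAs (70 to 414).

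The cells were a hybrid mouse line. Deletion cells carried the genotype Mirg(Delta/+), in which the maternal copy of the microRNA cluster miR-379/410 is deleted, and control cells carried Mirg(fl/+). Induced neurons (iNs, day 10) came from doxycycline induction of TetO-Ngn2, a transgene for the proneural factor Neurog2, and embryonic stem cells (ESCs, day 0) were kept in serum with LIF. Deletion iNs, control iNs, deletion ESCs and control ESCs each had 3 libraries of small RNA and 3 of rRNA-depleted RNA. Ago2 CLIP (seCLIP) was made in control iNs that expressed HA-tagged or untagged Ago2. Nothing in the labels says that the replicates were separate cultures, so a p-value covers the spread among these libraries only. In bulk samples, fewer cells of a type and less RNA per cell cannot be told apart.

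snoRNAs are short nuclear RNAs that pair with other RNAs and bring an enzyme to the paired base. Box C/D snoRNAs, named Snord, direct ribose methylation and assemble with fibrillarin (Fbl), Nop56, Nop58 and Snu13. Box H/ACA snoRNAs, named Snora, direct pseudouridylation and assemble with dyskerin (Dkc1), Nhp2, Nop10 and Gar1. Most targets are ribosomal RNA, whereas scaRNAs reside in Cajal bodies and act on spliceosomal snRNAs. In mammals nearly all are cut from introns of host genes, many of which encode ribosomal proteins or are noncoding. Those of the Dlk1-Dio3 domain lie in the maternally expressed noncoding transcripts that also hold the deleted cluster.

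Some snoRNAs contain annotated microRNAs, and these are the short sequences that the libraries were designed to capture. RefSeq (GRCm38.p6) places 12 mature microRNAs inside or across 7 snoRNAs, and 7 of them could be matched to the authors' tables through their mean values. The 5 printed here passed the authors' test between control iNs and control ESCs, and bases 2 to 8 (the seed) are in capitals.
miR-5121: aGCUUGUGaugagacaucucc
miR-1843a-3p: uCUGAUCGuucaccuccauaca
miR-1843a-5p: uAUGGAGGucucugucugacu
miR-1843b-5p: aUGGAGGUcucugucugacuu
miR-664-5p: cUGGCUGGggaaaaugacugg
All 5 seeds differ, and the seeds of miR-1843a-5p and miR-1843b-5p are offset by 1 base of a shared stretch. miR-5121 (chr7:45126925-45126945, minus strand) begins at the first annotated base of Snord33, a box C/D snoRNA within the ribosomal protein gene Rpl13a. The letters UGAUGA, the core of a box C, stand in it as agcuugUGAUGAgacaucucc, and they occur on the same strand in 12 of 1738 RefSeq mature microRNAs (0.69%). The miR-1843a pair (chr12:80391615-80391636 and chr12:80391654-80391674, minus strand) lies in Scarna3b, miR-1843b-5p (chr1:159340362-159340382, plus strand) in Scarna3a, and miR-664-5p (chr1:185242975-185242995, plus strand) in Snora36b.

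miR-5121 had 291, 269 and 268 counts in deletion iNs, 521, 477 and 407 in control iNs, and 0 in all 6 ESC libraries, where a count of 0 allows up to 3 counts per library. It was therefore detected in iNs alone, although Snord33 itself had 6421, 7854 and 7849 counts in deletion iNs, 9988, 7934 and 12422 in control iNs, 6883, 7844 and 8136 in deletion ESCs, and 9879, 7739 and 7429 in control ESCs. The authors' deposited table gives miR-5121 a log2 fold change of 8.36 in control iNs over control ESCs (adjusted p = 2.79e-22), while Snord33 did not pass the test in that comparison (log2 fold change -0.21). miR-1843a-3p had 36, 39 and 55 counts in deletion iNs and 80, 73 and 75 in control iNs, against 0, 1 and 3 in deletion ESCs and 0, 1 and 4 in control ESCs. Its log2 fold change was 5.0 ± 0.45 (SE) in control iNs over control ESCs and 4.0 ± 0.59 in deletion iNs over deletion ESCs. miR-1843a-5p, miR-1843b-5p and miR-664-5p were also higher in control iNs, by 3.88, 2.99 and 2.82 on the log2 scale. In deletion iNs over control iNs, miR-5121 fell by 0.76 ± 0.16 (adjusted p = 0.00318) and miR-1843a-3p fell by 0.80 ± 0.21 (adjusted p = 0.00858), whereas the authors' deposited table gives -0.18 (adjusted p = 0.649) and -0.22 (adjusted p = 0.803). In the same fit the median of all mature microRNAs was -0.55, against -0.29 with library totals and 0.08 scaled to the snoRNAs, and these 2 falls are of about that size. How the authors' counting divided reads between a microRNA and the snoRNA around it was not tested.

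Small RNA libraries held 3038112 to 4216346 counts and RNA libraries 14904735 to 21499106. The deleted locus matched its labels: Mirg, which holds the cluster, had 2, 0 and 2 RNA counts in deletion iNs, 455, 685 and 648 in control iNs, 0 in each deletion ESC library, and 932, 672 and 789 in control ESCs. Markers of pluripotency (6 genes) summed to 94 to 192 RNA counts in iNs and 28469 to 37806 in ESCs, and markers of neurons (6 genes) to 74142 to 103216 in iNs and 2635 to 3795 in ESCs. A list of 5 fibroblast markers summed to 1222 to 1347 counts in deletion iNs, 590 to 1099 in control iNs, 21925 to 24304 in deletion ESCs and 17137 to 22687 in control ESCs, with 4 of 5 detected in deletion iNs and 5 of 5 in the other groups. Single genes make these sums: Fn1 had 16333 to 22419 counts in ESCs, and Thy1 had 1097 to 1210 in deletion iNs and 521 to 984 in control iNs, where Col1a1, Col1a2 and Dcn had 0 to 8. The part of these genes' sources in the iN and ESC differences was not tested. Ensembl genes held 61.3 to 62.6% of small RNA counts in deletion iNs, 49.7 to 51.5% in control iNs, 64.0 to 70.5% in deletion ESCs and 61.9 to 75.1% in control ESCs. Mature microRNAs held 29.0 to 30.1%, 37.0 to 38.6%, 21.4 to 25.9% and 18.0 to 27.9% in the same order of groups. Control ESC library A stood apart in its group, with the highest gene share, the lowest microRNA share and a box C/D share of 26.0% against 22.4 and 20.4% in libraries B and C.

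Box C/D snoRNAs made up most of the snoRNA counts in every group and took a far smaller share of the iN libraries than of the ESC libraries. They held 7.12 ± 0.04% of all counts in deletion iNs, 9.56 ± 0.55% in control iNs, 21.6 ± 1.11% in deletion ESCs and 22.9 ± 2.85% in control ESCs (SD, n = 3 each). Every iN library lay below every ESC library, and every deletion iN library (7.08 to 7.15%) lay below every control iN library (8.93 to 9.88%). Box H/ACA snoRNAs held 0.12, 0.171, 0.364 and 0.468% in the same order of groups, again with no overlap between iNs and ESCs. Shares of counts in small RNA libraries need not equal shares in cells. Snora73a, of 205 bases, had a total of 414 small RNA counts and 14335 RNA counts, whereas Snord43, of 108 bases, had 558016 and 0. How length affected capture was not tested.

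The scaRNAs and the Dlk1-Dio3 snoRNAs showed the opposite order between iNs and ESCs, while deletion means again lay below control means in each cell type. scaRNAs held 0.0701 ± 0.0025% in deletion iNs, 0.0879 ± 0.004% in control iNs, 0.0164 ± 0.0001% in deletion ESCs and 0.0189 ± 0.0018% in control ESCs (SD, n = 3 each), a ratio of 4.27 for deletion iNs over deletion ESCs and 4.66 for control iNs over control ESCs. Domain snoRNAs held 0.516 ± 0.008% in deletion iNs, 0.55 ± 0.04% in control iNs, 0.235 ± 0.009% in deletion ESCs and 0.307 ± 0.027% in control ESCs, ratios of 2.2 and 1.79. Against these, box C/D snoRNAs had ratios of 0.33 in deletion cells and 0.42 in control cells. The order was the same with microRNAs left out: of gene counts alone, box C/D snoRNAs held 11.5% in deletion iNs, 18.9% in control iNs, 32.3% in deletion ESCs and 33.4% in control ESCs. The shares carry no test of their own, and the group ranges are the measure of their spread.

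**Figure D1:**
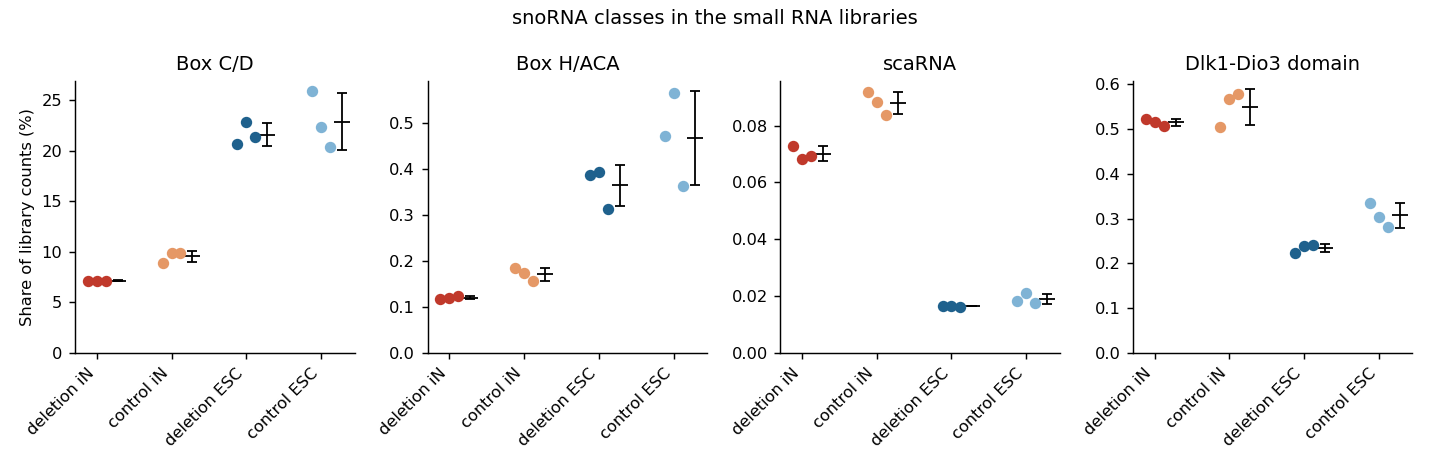
Share of all counts of a small RNA library held by each snoRNA class (percent, axes starting at 0), with 1 point per library and the mean with its SD for deletion iNs, control iNs, deletion ESCs and control ESCs. Box C/D and box H/ACA shares are lower in iNs (box C/D 7.12 and 9.56%) than in ESCs (21.6 and 22.9%), while scaRNA and Dlk1-Dio3 shares are higher in iNs.

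The 10 most abundant members were all box C/D snoRNAs, and they held 33.6 to 51.4% of the member counts of a library. Levels per length, in CPM (counts scaled to library size) per 100 bases of the authors' deposited feature length, had a different order in iNs and ESCs. For some members the RefSeq span is shorter than that length. Snord43 is one of them, with a length of 108 bases and a span of chr15:80082859-80082906, so the order depends on the length used. The main Snord80 entry was highest in iNs, at 4152 ± 532 in deletion iNs and 7204 ± 605 in control iNs (SD, n = 3 each). Snord34, in Rpl13a, had 2282 ± 364 in deletion iNs and 31740 ± 5321 in deletion ESCs, where it was the highest. In control ESCs Snord43 (30270 ± 10090), Snord34 (28860 ± 5679) and Snord12 (28160 ± 7465) led and did not differ beyond their spread. Snord43, in the ribosomal protein gene Rpl3, had 8798, 8003 and 8178 counts in deletion iNs, 14125, 16881 and 15443 in control iNs, 73997, 72857 and 71711 in deletion ESCs, and 107843, 79855 and 80325 in control ESCs. Snord12, in the noncoding gene Zfas1, had 8601, 10282 and 10932 counts in deletion iNs, 16015, 18136 and 19349 in control iNs, 65579, 74125 and 72188 in deletion ESCs, and 78324, 65245 and 65484 in control ESCs. In raw counts of both, the 4 groups separated into deletion iNs, then control iNs, then ESCs, whose genotypes overlapped for Snord12. After scaling, edgeR's quasi-likelihood test called 0 members between the ESC genotypes. The symbol Snord80 stands for 2 gene entries with totals of 365941 and 5359, and near-identical copies of this kind are uncertain in the authors' counts.

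Whether snoRNAs changed between iNs and ESCs was tested gene by gene with edgeR's quasi-likelihood test and Benjamini-Hochberg adjustment over all features of the table. In control iNs over control ESCs 81 of 123 tested members fell and 17 rose, with a median log2 fold change of -1.61, where 71.2% of all 2561 features were called (38.0% higher, 33.2% lower) with a median of 0.07. The groups did not overlap for 101 of the 123, against 76.3% of all features. In deletion iNs over deletion ESCs 98 of 121 fell and 11 rose (median -2.4), where 77.8% of all features were called (46.4% higher, 31.4% lower; median 0.68, of which Ensembl genes 1.08 and mature microRNAs -1.23). The comparisons share no library. Among the 121 members tested in both, 79 fell in both (97.5% of those that fell in control cells and 80.6% of those that fell in deletion cells), 11 rose in both (64.7% and 100.0%), and 0 were called in opposite directions.

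By class, 59 of 81 box C/D members fell and 6 rose in control iNs (median -1.82), as did 20 and 6 of 33 box H/ACA members (median -1.47), while 5 of 9 scaRNAs rose and 2 fell (median 0.79). In deletion iNs 70 of 81 box C/D members fell and 3 rose (median -2.60), 25 and 4 of 32 box H/ACA members did so (median -2.05), and 4 of 8 scaRNAs rose and 3 fell (median 0.68). These directions are relative to TMM scaling, and scaling moved them. With library totals in place of TMM, which shifts the median of all features to 0.56 in control cells and 1.91 in deletion cells, 74 members fell and 28 rose in each comparison. Scaled to the snoRNAs themselves (median of all features 1.67 and 3.03), 41 fell and 45 rose in control cells and 46 fell and 48 rose in deletion cells, a scaling that sets the balance of the class near 0 by construction and leaves the order of its members. In that scaling 7 of 9 scaRNAs rose and 0 fell in control iNs.

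**Figure D2:**
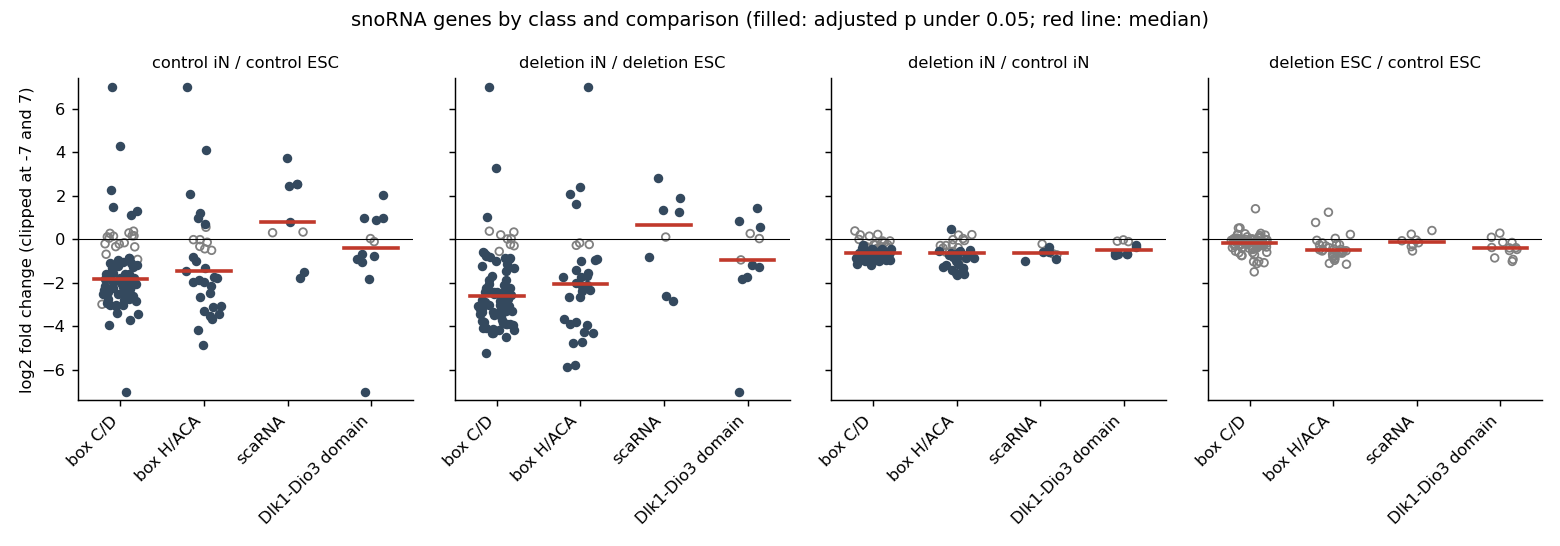
Log2 fold change of each snoRNA gene by class in control iNs over control ESCs, deletion iNs over deletion ESCs, deletion iNs over control iNs and deletion ESCs over control ESCs. Filled points passed an adjusted p of 0.05 and red lines are class medians, which for box C/D genes are -1.82 and -2.60 in the iN over ESC comparisons.

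**Figure D3:**
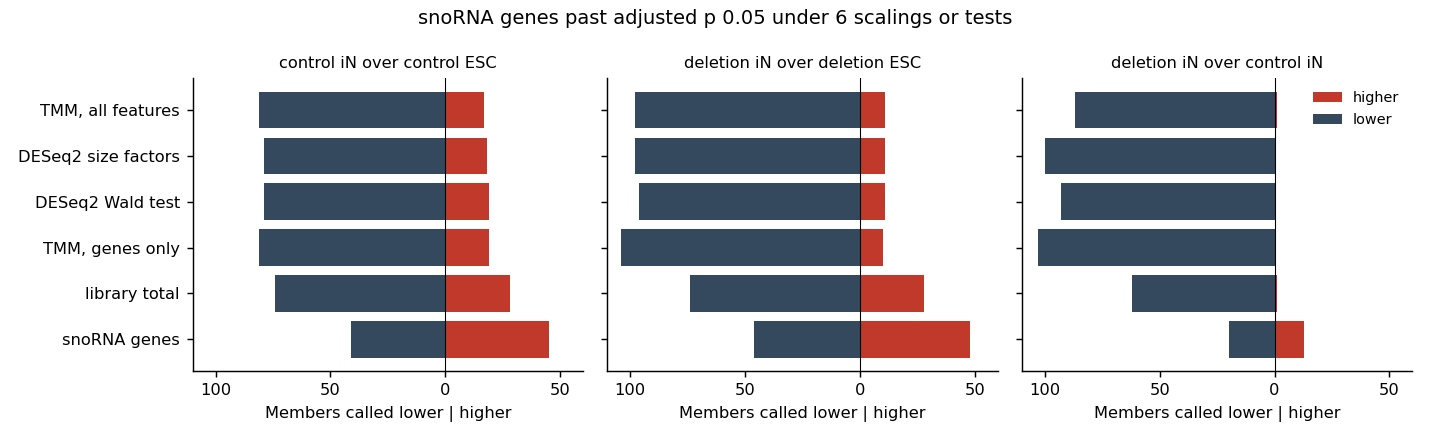
Number of members called lower (left of 0) and higher (right of 0) under 6 scalings or tests, for control iNs over control ESCs, deletion iNs over deletion ESCs and deletion iNs over control iNs. The excess of lower calls, 81 against 17 in control cells with TMM, is gone with scaling to the snoRNA genes, at 41 against 45.

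The largest falls reached more than 4 on the log2 scale and came from both guide classes. Snora52, a box H/ACA snoRNA in the ribosomal protein gene Rplp2, had 7, 10 and 15 counts in deletion iNs, 21, 26 and 17 in control iNs, 397, 351 and 227 in deletion ESCs, and 491, 475 and 378 in control ESCs. It fell by 4.85 ± 0.33 (SE) in control iNs over control ESCs (adjusted p = 1.14e-06) and by 5.85 ± 0.34 in deletion iNs over deletion ESCs. The lowest ESC library held many times the counts of the highest iN library.
Snord95, a box C/D snoRNA in Rack1, which encodes a scaffold protein of the small ribosomal subunit, had 750, 1002 and 1266 counts in deletion iNs, 1982, 2042 and 2079 in control iNs, 21308, 21298 and 15933 in deletion ESCs, and 26411, 19224 and 20622 in control ESCs. Its fall was 3.91 ± 0.25 in control cells (adjusted p = 7e-07) and 5.22 ± 0.26 in deletion cells (adjusted p = 3.43e-10), and no library of either iN group reached those of ESCs. Snora9, Snord78, Snora24, Snora33, Snord2 and Snora75 completed the largest falls in control cells, with log2 fold changes of -4.17, -3.71, -3.67, -3.54, -3.43 and -3.43. The 10 most abundant members all fell as well, the main Snord80 entry least, with a log2 fold change of -1.08 ± 0.23 in control cells and -2.25 ± 0.18 in deletion cells; scaled to the snoRNAs its direction turned to 0.59 and 0.12.
Snord50a was at 0 in all 3 control iN libraries, and it was at least 194-fold lower there than in control ESCs, with the floor set at 3 counts per library. Its deletion iN counts of 0, 197 and 159 and its deletion ESC counts of 604, 1848 and 0 show that its libraries differ widely within groups, and how the counting split reads between it and its relative Snord50b was not tested.

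Rises were fewer, and among members with counts in every library the largest were in Cajal body RNAs. Scarna10, within Ncapd2, which encodes a condensin subunit, had 452, 389 and 455 counts in deletion iNs, 935, 791 and 835 in control iNs, 39, 24 and 33 in deletion ESCs, and 43, 42 and 58 in control ESCs. It rose by 3.73 ± 0.20 in control iNs over control ESCs (adjusted p = 2.52e-07) and by 2.83 ± 0.24 in deletion iNs over deletion ESCs (adjusted p = 7.9e-08). Scarna9 had 1110, 1156 and 1067 counts in deletion iNs, 1510, 1328 and 1410 in control iNs, 157, 124 and 183 in deletion ESCs, and 202, 165 and 156 in control ESCs, with log2 fold changes of 2.55 ± 0.23 in control and 1.90 ± 0.20 in deletion cells. For both, every iN library was well above every ESC library. Scarna3b (2.53 and 1.24) and Scarna17 (2.45 and 1.37) rose in both comparisons. Scarna3a rose in control cells alone among the calls (0.79, adjusted p = 0.0293, against 0.11 in deletion cells), and that difference did not pass the interaction test (adjusted p = 0.676).
Of the remaining scaRNAs 2 went the other way. Scarna8 fell by 1.78 and 2.83 and Scarna6 by 1.49 and 2.62 in control and deletion cells, Scarna13 was not called (0.31), and Scarna2 was not called in control cells (0.34) and fell by 0.79 ± 0.20 in deletion cells. Scarna2, which was counted at 193, 208 and 219 in deletion iNs, 383, 409 and 381 in control iNs, 184, 185 and 187 in deletion ESCs and 217, 227 and 236 in control ESCs, turned to a log2 fold change of 0.46 with library totals.

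Among the guide classes, Snord104 had 433, 547 and 538 counts in deletion iNs, 693, 517 and 641 in control iNs, 125, 122 and 139 in deletion ESCs, and 60, 94 and 131 in control ESCs, and rose by 2.29 in control and 1.02 in deletion cells. Snora47, in the zinc finger gene Zbed3, rose by 2.07 and 2.42, and Snord61, in the RNA-binding protein gene Rbmx, by 4.31 ± 0.56 and 3.28 ± 0.48 with 0 to 2 counts in each ESC library. Snord21, in Rpl5, rose by 1.51 in control cells and was not called in deletion cells (0.38), and Snord90, in Rc3h2, had 1.12 in control cells and 0.02 in deletion cells. Neither difference between genotypes passed the interaction test (adjusted p = 0.103 for Snord21 and 0.115 for Snord90). Snord90 had 8816, 9555 and 9394 counts in deletion iNs, 14502, 14041 and 15952 in control iNs, 4638, 5196 and 4255 in deletion ESCs, and 5602, 4645 and 4466 in control ESCs, so the iN groups did not overlap with ESCs in raw counts in either genotype.
Snord68, Snora26 and Snora74a were at 0 in all 6 ESC libraries. Snora74a, with a total of 90.3, was not tested between iNs and ESCs in small RNA-seq. It had 1034, 445 and 391 RNA counts in deletion ESCs and 865, 393 and 514 in control ESCs, so a 0 in small RNA libraries need not mean absence. Snord68, in Rpl13, had 429, 485 and 339 counts in deletion iNs and 791, 504 and 749 in control iNs, at least 76-fold and at least 133-fold higher than the floor in deletion ESCs and control ESCs. The host entry Rpl13 had 11109 to 13530 small RNA counts in deletion iNs, 22004 to 23881 in control iNs, 35156 to 38820 in deletion ESCs and 33067 to 41958 in control ESCs. When host and snoRNA counts were merged, an alternative chosen after seeing the data, the pair fell by 1.15 in control and 2.57 in deletion cells. Snora26, in the noncoding gene Dancr, had 66, 36 and 44 counts in deletion iNs and 46, 36 and 47 in control iNs, at least 9-fold and at least 8-fold higher than the floor.

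A small group of snoRNAs takes part in cutting the rRNA precursor. Snord118, which is needed for maturation of the large subunit rRNA, had 3102, 3359 and 3550 counts in deletion iNs, 5360, 5405 and 5157 in control iNs, 11983, 10463 and 6776 in deletion ESCs, and 16559, 11254 and 11296 in control ESCs. Its log2 fold change was -1.77 ± 0.25 in control iNs over control ESCs (adjusted p = 0.00014) and -2.48 in deletion cells, with no overlap between iNs and ESCs of either genotype. Of the copies of Snord14, which acts in processing of the small subunit rRNA, Snord14a fell by 3.04 and 4.31, Snord14e by 2.78 and 3.46, Snord14c by 2.02 and 2.41, and Snord14d by 0.96 and 2.4 in control and deletion cells. Snord22 and Snord13, which also act on the small subunit rRNA, were not called in control cells (0.15 and -0.68). Snora73a rose by 1.21 in control cells, with 38 to 71 counts in control iNs and 14 to 19 in control ESCs. Over the list, 5 of 8 tested members fell and 1 rose in control iNs (median -1.37), and 7 of 8 fell in deletion iNs (median -2.4); the shares called are near the 71.2 and 77.8% of all features.

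In deletion iNs against control iNs, nearly all called snoRNAs were lower. With edgeR's quasi-likelihood test 87 of 123 tested members fell and 1 rose, with a median log2 fold change of -0.63, where 47.2% of all 3299 features were called (24.3% higher, 22.9% lower) and their median was 0.28. That median was 0.56 over Ensembl genes and -0.55 over mature microRNAs, so the median mature microRNA was lower by nearly as much as the median snoRNA. The groups did not overlap for 101 members, against 56.4% of all features. The falls spread over the classes, with 61 of 80 box C/D members (median -0.62), 21 of 35 box H/ACA members (median -0.64) and 5 of 8 scaRNAs (median -0.63). With library totals (median of all features 0.53) 62 fell and 1 rose, and scaled to the snoRNAs (0.90) 20 fell and 13 rose with a median of 0.0. DESeq2's Wald test called 93 lower and 0 higher. Beside this, protein-coding genes held 4.5 to 5.09% of small RNA counts in deletion iNs and 3.18 to 3.5% in control iNs, and mature microRNAs held less of the deletion iN libraries, as given above. The part of these shares in the result was not tested.

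The largest falls were box H/ACA snoRNAs. Snora19, in the translation initiation factor gene Eif3a, had 35, 30 and 30 counts in deletion iNs and 94, 110 and 88 in control iNs, and fell by 1.62 ± 0.21 (adjusted p = 0.000105). Snora2b, in Kansl2, had 53, 87 and 95 counts in deletion iNs and 255, 238 and 213 in control iNs, a fall of 1.59 ± 0.21 (adjusted p = 0.000143). Snora9 had 40, 42 and 55 counts in deletion iNs and 138, 127 and 136 in control iNs, a fall of 1.54 ± 0.18 (adjusted p = 5.87e-05). In all 3 the highest deletion library was below the lowest control library. Snora31, in Tpt1, fell by 1.39 ± 0.17, Snora36b, in Rab3gap2, by 1.30 ± 0.16, Snora30, in Srcap, by 1.29 ± 0.23 and the main Snora16a entry by 1.26 ± 0.20. Another entry under the symbol Snora16a was at 0 in every iN library. Snord14d was the only box C/D snoRNA among the 8 largest, with 5944, 10344 and 8364 counts in deletion iNs and 16011, 21532 and 17132 in control iNs (a fall of 1.17 ± 0.18).
The abundant box C/D members moved less. Snord43 fell by 0.89 ± 0.13 (adjusted p = 0.000214), Snord12 by 0.84 ± 0.12 (adjusted p = 0.000187), Snord100 by 1.01 ± 0.10 and Snord34 by 0.57 ± 0.11, though Snord34 turned to 0.06 with scaling to the snoRNAs. Snord14c, with 11515, 8119 and 11690 counts in deletion iNs and 16019, 9273 and 12510 in control iNs, overlapped between the groups and was not called (-0.24, adjusted p = 0.298). Snord78 was not called either (-0.12, adjusted p = 0.543).
The 1 member that rose was Snora81, with 409, 448 and 396 counts in deletion iNs and 358, 284 and 262 in control iNs (0.47 ± 0.16, adjusted p = 0.0313). DESeq2 did not call it (0.27, adjusted p = 0.271), and the count of members higher was 0 without deletion iN library B or C and 2 without control iN library C. It lies in Eif4a2, which encodes a translation initiation helicase and also holds Snord2. Merged with the counts of that host, which had 376, 509 and 497 small RNA counts in deletion iNs and 1056, 1031 and 884 in control iNs, its log2 fold change was -0.51.

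In deletion ESCs against control ESCs, edgeR's quasi-likelihood test called 0 of 117 tested members in either direction (median -0.21), where it called 4.86% of all 1933 features (0.259% higher, 4.6% lower). At an unadjusted p under 0.05, 11 members were lower and 1 higher, and DESeq2 called 3 lower and 0 higher. The same letters deviated together in these libraries, and with the replicate letter as a block 2 members were lower. Without control ESC library C 8 members were lower, and without control ESC library A 1 was higher. For 11 members the groups did not overlap, against 23.6% of features. SEs in ESCs were larger than in iNs for the members with large falls there, 0.23 for Snora31 in ESCs against 0.17 in iNs.

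Whether the deletion acted differently in iNs and ESCs was tested with the interaction of genotype and cell type. It called 10 of 126 members, all lower, where 9.62% of all 4086 features were called (2.15% higher, 7.46% lower), so the share of members called is close to that of all features. The 10 comprised 8 box C/D members (Snord87, Snord100, Snord50b, Snord12, Snord37, Snord38a, Snord70 and Snord82) and the box H/ACA members Snora31 and Snora21. Snora31 had 367, 421 and 543 counts in deletion iNs, 1314, 1117 and 1064 in control iNs, 4015, 4877 and 4287 in deletion ESCs, and 4275, 5536 and 4303 in control ESCs. The groups were apart in iNs and overlapped in ESCs, and the interaction was -1.40 ± 0.32 (adjusted p = 0.0136). For Snord87, in the noncoding gene Snhg6, it was -1.22 ± 0.28 (adjusted p = 0.0134). DESeq2 called 50 lower, the replicate block left 5, library totals left 2 and scaling to the snoRNAs left 0. The count rested on single libraries: it was 62 without control ESC library A, 28 and 27 without deletion ESC libraries C and A, 17 and 16 without libraries C of control iNs and control ESCs, 5 and 4 without libraries A of deletion iNs and control iNs, and 0 without deletion iN library B. Without library C of control iNs or of control ESCs, 1 member was higher.

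The snoRNA genes of the Dlk1-Dio3 domain lie on chromosome 12, and 5 of the 12 fall within Rian, a maternally expressed noncoding transcript upstream of the deleted cluster. In control iNs over control ESCs 4 of 12 rose and 6 fell (median -0.39), near the 71.2% of all features called (38.0% higher, 33.2% lower); with library totals 5 rose and 2 fell, and scaled to the snoRNAs 10 rose and 1 fell. In deletion iNs over deletion ESCs 3 of 11 rose and 5 fell (median -0.94), which became 5 and 3 with library totals and 10 and 1 scaled to the snoRNAs. AF357425, in Rian, had 4715, 4853 and 4445 counts in deletion iNs, 5184, 5378 and 6403 in control iNs, 768, 934 and 936 in deletion ESCs, and 1020, 935 and 1063 in control ESCs. Every iN library was far above every ESC library, and it rose by 2.04 ± 0.17 in control cells (adjusted p = 3.59e-06) and by 1.45 ± 0.18 in deletion cells (adjusted p = 6.95e-06).
Gm23736 rose by 0.98 ± 0.26 and 0.87 ± 0.19, and AF357341 by 0.98 ± 0.18 and 0.58 ± 0.18, in control and deletion cells. Gm23787 rose in control cells (0.91 ± 0.17) and was not called in deletion cells (0.27), a difference that did not pass the interaction test (adjusted p = 0.645). DQ267100 was level (0.04 in each), although with library totals it was called higher in both, at 0.58 and 1.28. Gm22981, AF357428, Gm25854 and DQ267102 fell in control cells by 0.78, 0.68, 0.92 and 1.02 and in deletion cells by 1.81, 1.27, 1.18 and 1.74, and all 4 turned to a rise when scaled to the snoRNAs.
DQ267101, also within Rian, stood apart from its neighbours. It was at 0 in all 6 iN libraries, with 246, 183 and 225 counts in deletion ESCs and 575, 345 and 315 in control ESCs. It was at least 131-fold lower in deletion iNs than in deletion ESCs and at least 240-fold lower in control iNs than in control ESCs. Its neighbour DQ267102 had 217, 272 and 295 counts in deletion iNs, 376, 416 and 453 in control iNs, 456, 481 and 422 in deletion ESCs, and 726, 521 and 577 in control ESCs. Near-identical copies in such arrays could split reads between entries in the authors' counting.

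**Figure D4:**
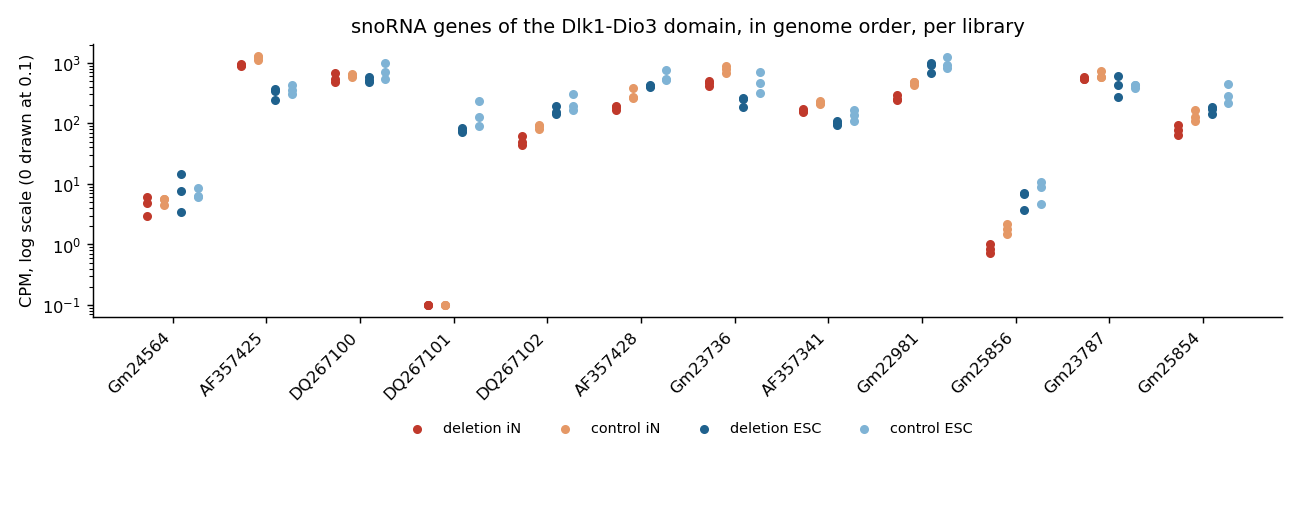
CPM of the 12 Dlk1-Dio3 snoRNA genes on a log axis, in genome order, with 1 point per library for deletion iNs, control iNs, deletion ESCs and control ESCs (0 is drawn at 0.1). AF357425 is high in iNs, DQ267101 is at 0 in all 6 iN libraries, and neighbours differ in which cell type is higher.

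The deletion left these snoRNAs expressed. In deletion iNs against control iNs 7 of 10 tested domain genes fell and 0 rose (median -0.49), where 47.2% of all features were called (22.9% lower) and mature microRNAs had a median of -0.55. They became 3 and 0 with library totals and 0 and 4 scaled to the snoRNAs. At an unadjusted p under 0.05 and with DESeq2 the counts were also 7 lower and 0 higher. Gm22981 had 1270, 1341 and 1380 counts in deletion iNs and 2250, 1918 and 2462 in control iNs, a fall of 0.72 ± 0.10 (adjusted p = 0.000211). Gm23736, with 2288, 2263 and 2358 counts in deletion iNs and 3722, 3866 and 3433 in control iNs, fell by 0.67 ± 0.12 (adjusted p = 0.000971). AF357425 fell by 0.27 ± 0.10, a call near the threshold (adjusted p = 0.0486), and its value was -0.01 with library totals and 0.36 scaled to the snoRNAs. The host entry Rian had 11846, 14216 and 13619 small RNA counts in deletion iNs, 19295, 15924 and 22378 in control iNs, 1498, 1893 and 2216 in deletion ESCs, and 2079, 2004 and 2106 in control ESCs. In RNA-seq, Rian and its upstream neighbour Meg3 went the other way in iNs: Rian rose by 0.27 (adjusted p = 0.00444) and Meg3 by 0.56 (adjusted p = 0.00106) in deletion iNs, and both fell by 0.38 in deletion ESCs (adjusted p = 0.0356 for Rian and 0.0092 for Meg3). In ESCs 0 of 12 domain genes were called with edgeR's quasi-likelihood test, 4 were lower at an unadjusted p under 0.05, and DESeq2 called 2 lower. The interaction called 0 of 12, with 1 lower at an unadjusted p under 0.05 and 1 with DESeq2.

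The Prader-Willi locus is another imprinted snoRNA cluster, expressed from the paternal copy and best known in neurons. Of its large Snord116 family, the 17 entries with that symbol summed to 63 counts over the 12 libraries and none was a member. The files hold 0 entries named Snord115. Copies under other symbols were not searched for, and near-identical copies are uncertain in the authors' counts, so these counts do not measure either family. Snord64, in Snhg14, had 7088, 7400 and 6632 counts in deletion iNs, 9771, 8916 and 10202 in control iNs, 5039, 5121 and 6455 in deletion ESCs, and 7688, 5775 and 5652 in control ESCs. It was not called in control iNs over control ESCs (0.12, adjusted p = 0.656), and it fell by 0.44 ± 0.09 in deletion iNs over control iNs (adjusted p = 0.00242), a value of 0.19 scaled to the snoRNAs. Snord107 had 1106, 1345 and 1353 counts in deletion iNs, 1408, 1268 and 1577 in control iNs, 3754, 4368 and 4874 in deletion ESCs, and 3883, 3555 and 3700 in control ESCs. Its log2 fold change was -1.85 ± 0.17 in control and -2.73 ± 0.20 in deletion cells, so these neighbours in 1 locus differed in their iN over ESC values.

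Of the 128 members, 112 lie within the span of an annotated gene, taken as the host, and the RNA libraries gave the level of that host. Hosts were assigned by position alone, with strand and introns not compared. Where several genes spanned a snoRNA, genes with a proper name and then the shortest span were preferred. In control iNs over control ESCs 66 of 78 tested hosts fell and 8 rose (median -1.72), where 89.0% of all 17247 genes were called (43.9% higher, 45.1% lower). In deletion cells 68 fell and 9 rose (median -2.02), with 89.4% of genes called. Of the list of noncoding hosts 10 of 15 were lower in control iNs, among them Gas5 (-2.17), Snhg1 (-3.55), Snhg12 (-2.80) and Snhg8 (-2.28), and 5 higher, Snhg11 (4.53), Snhg18 (2.60), Meg3 (2.16), Rian (0.97) and Snhg14 (0.36). None of the members or domain genes was placed in Snhg11, Meg3, Snhg5, Snhg15, Snhg17 or Snhg20 of that list.
For 80 snoRNA and host pairs of control cells both partners were called, 69 in the same direction and 11 in opposite directions. As 81 members fell and 17 rose, and 66 hosts fell and 8 rose, most pairs would share a direction however they were matched. Across the 103 pairs tested, from 78 hosts, Pearson's r of the log2 fold changes was 0.17 and Spearman's rho 0.35, a description across genes that share libraries and hosts. The opposite pairs included Scarna10, which rose by 3.73 while Ncapd2 RNA fell by 4.65 ± 0.09, and Snord2, which fell by 3.43 ± 0.26 while Eif4a2 RNA rose by 0.73 ± 0.06. Eif4a2 had 13052, 12884 and 12472 RNA counts in deletion iNs, 11069, 14126 and 11261 in control iNs, 7515, 7451 and 7498 in deletion ESCs, and 8794, 6782 and 7638 in control ESCs. Snord2 in the small RNA libraries had 3524, 3928 and 3778 counts in deletion iNs, 5079, 4972 and 5489 in control iNs, 38540, 36288 and 30622 in deletion ESCs, and 49223, 34739 and 36318 in control ESCs. Host and snoRNA thus separated iNs from ESCs without overlap and in opposite directions.

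**Figure D5:**
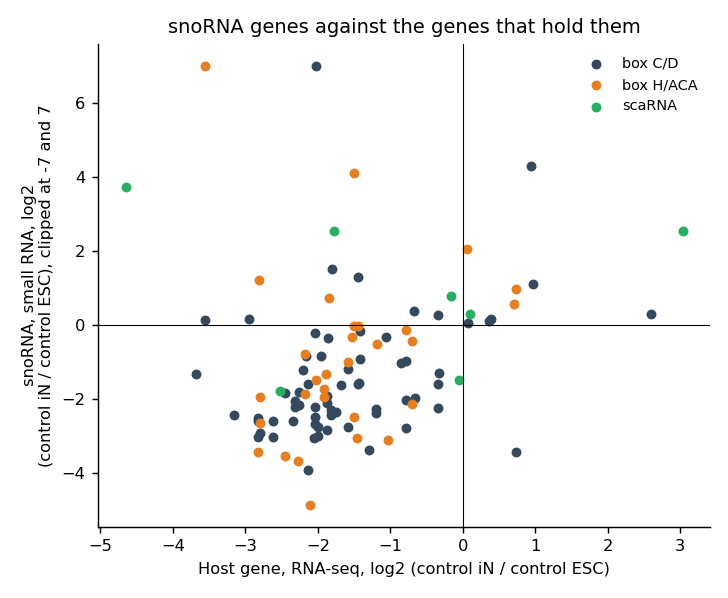
Log2 fold change of each snoRNA in small RNA-seq (vertical, clipped at the ends of the axis) against that of its host gene in RNA-seq (horizontal), both in control iNs over control ESCs, coloured by class. Most points lie in the quadrant where both are lower, and Scarna10 (3.73 against -4.65 for Ncapd2) and Snord2 (-3.43 against 0.73 for Eif4a2) lie on the other sides of the axes.

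snoRNAs placed in 1 host also differed from each other. The 4 snoRNAs of Rpl13a had log2 fold changes in control iNs from -2.67 for Snord34 to -0.21 for Snord33, where the host RNA had -2.04. In Hspa8, which encodes a constitutive chaperone, Snord14e had -2.78, Snord14c -2.02 and Snord14d -0.96, against -0.78 for the host. The members in Rpl23a lay closer together, at -2.83 to -1.92 (host -1.88), as did those in Snhg12, at -2.92 to -1.94 (host -2.80).

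Many snoRNA hosts have an oligopyrimidine start, a C at the first transcribed base followed by pyrimidines, which is known to tie the translation of their RNA to growth signals. The RefSeq promoters of 71 hosts were searched on the gene's strand for such a start, a run of at least 5 pyrimidines (C or T) from a C at the annotated first base. It was found in 8 of 71 hosts (11.3%) and in 813 of 27025 genes in all (3.01%), and annotated starts a few bases off would be missed. Noncoding hosts that fell had annotated starts with and without such a run. The starts of 3 of them, Gas5 with both of its annotated starts, and that of Rian, which rose, are shown from 10 bases before the annotated start to 20 bases from it, with the pyrimidines that run on from a first C in capitals.
Gas5 (chr1:161034591-161034620, plus strand): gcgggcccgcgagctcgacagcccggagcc
Gas5 (chr1:161035156-161035185, plus strand): ccatctcagcCTTTCggagctgtgcggcat
Snhg8 (chr3:123508317-123508346, minus strand): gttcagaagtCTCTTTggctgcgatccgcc
Snhg12 (chr4:132308668-132308697, plus strand): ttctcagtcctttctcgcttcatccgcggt
Rian (chr12:109603935-109603964, plus strand): cagctatggctcactgcccctcagggggca
Snhg8 and 1 of the 2 Gas5 starts meet the minimum, and Snhg12, Rian and the other Gas5 start have no such run at the annotated first base. In Snhg12, however, pyrimidines run across the annotated start from a C just before it. A true start at that C would meet the minimum, so Snhg12 is not a clear case without such a start. Snhg3, Snhg5 and Snhg15, which also fell, have none either.

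In deletion iNs against control iNs most called hosts were lower, by small amounts. Of 78 tested hosts, 36 fell and 3 rose with a median of -0.17, where 25.6% of all 16028 genes were called (12.4% higher, 13.3% lower). Values ran from -0.71 for Zbed3 to 0.47 for Ncapd2, and the ribosomal protein hosts Rpl37 (-0.59), Rpl32 (-0.58), Rpl39 (-0.55) and Rpl23a (-0.50) were among the falls. Of the 15 noncoding hosts of the list, 4 rose and 0 fell, Snhg11 (0.77), Meg3 (0.56), Snhg14 (0.28) and Rian (0.27), while in deletion ESCs 2 of 14 fell, Meg3 and Rian. Snhg14 holds the member Snord64 and Rian holds domain genes, whereas no member or domain gene was placed in Snhg11 or Meg3. Both partners were called in 47 pairs, 44 in the same direction, and the opposite ones were Scarna10, Snora30 and Snord64, whose hosts Ncapd2 (0.47), Srcap (0.24) and Snhg14 (0.28) rose. With 87 members lower and 1 higher, and 36 hosts lower and 3 higher, nearly all pairs would share a direction however they were matched. Without deletion iN library C 1 host was higher. The interaction called 26 of 78 hosts lower and 1 higher, where 13.5% of genes were called (8.5% lower, 5.01% higher), and 17 lower without control ESC library B. Across 101 pairs Pearson's r was 0.01 and Spearman's rho 0.06. In deletion ESCs 0 of 77 hosts were called with edgeR's quasi-likelihood test, where 1.91% of all genes were (1.37% higher, 0.544% lower); 4 were lower and 0 higher at an unadjusted p under 0.05, DESeq2 called 0, and the replicate block called 2 lower.

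The proteins that bind and build snoRNA particles fell together in iNs. Of 24 tested of a list of 25, 23 were lower in control iNs over control ESCs and 1, Pih1d1, was higher (0.50), with a median of -2.25, where 89.0% of all genes were called (45.1% lower). Fbl, the methyltransferase of box C/D particles, had 302, 285 and 322 RNA counts in deletion iNs, 232, 362 and 306 in control iNs, 3818, 3153 and 3025 in deletion ESCs, and 3723, 2595 and 3053 in control ESCs. It fell by 3.30 ± 0.07 in control cells (adjusted p = 2.4e-13). Its partners Nop56, Nop58 and Snu13 fell by 2.26, 2.32 and 1.23, and of the box H/ACA proteins Dkc1 fell by 1.59, Nhp2 by 3.15, Gar1 by 3.04 and Nop10 by 0.73. The assembly factor Naf1 fell by 4.18 and the nucleolar proteins Npm1 and Ncl by 3.01 and 2.82, while coilin (Coil), the scaffold of Cajal bodies, fell by 0.63. In deletion iNs over deletion ESCs the split was also 23 lower and 1 higher (median -2.44).
In deletion iNs against control iNs 7 of the 24 fell and 1 rose, where 25.6% of all genes were called (12.4% higher, 13.3% lower). The share called in either direction was not far from that background, and most of the calls were falls. These were Naf1 (-0.51), Nolc1 (-0.39), Nop10 (-0.29), Ncl (-0.26), Ruvbl2 (-0.26), Snu13 (-0.26) and Nop58 (-0.22), with Rpap3 higher (0.24, adjusted p = 0.0493). Without deletion iN library A 4 fell, and without that library, deletion iN library B or control iN library A or C none was called higher. In deletion ESCs edgeR's quasi-likelihood test called 0, with 1 higher at an unadjusted p under 0.05 and 0 called by DESeq2.

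The RNA libraries held counts for some snoRNAs as well. There, 61 members had a count and 37 reached a total of 50. In control iNs over control ESCs 17 of 26 tested fell and 1, Scarna3a, rose (2.34), with a median of -1.08, where 89.0% of all genes were called. For 4 members the assays were opposite in sign among the calls: Snora23, Snora26, Snora57 and Snora73a rose in small RNA-seq and fell in RNA-seq. In all 4, library A held the most RNA counts in both ESC groups. Snora26, with 132, 28 and 45 RNA counts in control ESCs and 5, 41 and 22 in control iNs, overlapped between these groups. Snora73a had 295, 497 and 362 RNA counts in deletion iNs, 263, 751 and 484 in control iNs, 3407, 1526 and 1199 in deletion ESCs, and 2964, 1139 and 1450 in control ESCs, a fall of 1.81 ± 0.27 in control cells. In the small RNA libraries it had 41, 49 and 40 counts in deletion iNs, 71, 45 and 38 in control iNs, 20, 21 and 40 in deletion ESCs, and 14, 16 and 19 in control ESCs. Scarna10 was level in RNA-seq in control cells (0.03). In deletion iNs over deletion ESCs 21 of 23 tested members fell in RNA-seq and 1 rose (median -1.95), where 89.4% of all genes were called. There Snora23, Snora26 and Scarna10 were opposite between the assays. Scarna10 fell by 0.26 in RNA-seq (adjusted p = 0.0152, edgeR's quasi-likelihood test) and rose by 2.83 in small RNA-seq. In deletion iNs against control iNs 5 of 16 fell and 0 rose, near the 25.6% of all genes called, with 12 lower at an unadjusted p under 0.05 and 2 lower with DESeq2.

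Ago2 CLIP regions in control iNs met most located snoRNAs but carried low folds there. At an overlap of at least 1 base, and with strand not compared, a deposited region met 66 of 74 located box C/D members, 31 of 33 box H/ACA members, 7 of 9 scaRNAs and 5 of 12 domain genes. The fold values are the authors'. For HA-Ago2 against input, the median over members of the highest log2 fold was 0.18 for box C/D, -0.96 for box H/ACA, -0.39 for scaRNAs and -0.66 for the domain, where the median of all 22432 regions was 2.22. Over the immunoprecipitate of untagged Ago2 the class medians of the highest fold were 0.31, 0.19, 0.06 and 0.23, and the median of all regions was -0.13. The class values take the highest region of each snoRNA, and 66 box C/D members met 163 regions. They therefore tend to lie above a median of single regions, and a higher value here is no sign of enrichment. No snoRNA met a region with both a log2 fold of 3 and a −log10 p of 3. Of all regions, 4357 (19.4%) reached both over input and 828 (3.69%) did over untagged Ago2. The highest over input was Snord15a, on chromosome 7, at 2.11, followed by Snord42b at 2.05.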

How the data were processed

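Of small RNA and of rRNA-depleted RNA 12 libraries each were read, and Ago2 seCLIP through the authors' region lists. The authors' deposited expression files hold expected counts (estimated counts) and posterior mean counts, as RSEM writes them per the file headers, with feature lengths, for genes (RNA-seq) or for transcripts, mature microRNAs and hairpins (small RNA-seq). They are not scaled to depth. The authors' deposited tables give, per the file headers, a mean normalised count (a signal averaged over libraries), the log2 fold change and its adjusted p-value. The deposited CLIP lists give a log2 fold and a −log10 p per region, with replicates not kept apart. Per the submitters' processing notes, the tools were RSEM 1.2.30, STAR 2.4.1d, cutadapt 1.4.2, SAMtools and DESeq2, and the build was mm10. Per the labels' protocols, small RNA libraries were 40-base single reads and RNA libraries 75-base paired reads. Annotation release, strand setting and use of molecular identifiers were not given in the sources used here, so overlapping genes, near-identical copies and snoRNAs within hosts have uncertain counts.

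Transcript counts were summed by gene and rounded, and all features were tested with edgeR 4.0.16 (R 4.3.3) by its quasi-likelihood test after TMM scaling and filterByExpr at a least count of 10, with p-values adjusted by Benjamini-Hochberg over all features and called under 0.05. The SE is the size of the log2 fold change divided by the square root of F. Each comparison used its 6 libraries and the interaction all 12. Alternatives were DESeq2 1.42.0 size factors and its Wald test, no filter, 1 fit of all libraries, library totals, TMM over genes or over snoRNAs alone, posterior mean counts, a membership minimum of 200, each library left out and a block on the replicate letter. On simulated data the test recovered 30 and 96% of features changed by 1 and 2 on the log2 scale in control iNs over control ESCs (2028 features), and 63 and 100% in deletion iNs over control iNs (2624 features). Only 200 features were changed there, up or down at random. In the data 71.2 and 47.2% of features were called, so these rates do not cover such broad shifts or their effect on scaling.

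The named genes were the domain genes, the 10 most abundant members, at most 6 per role list, and per comparison the 8 largest called rises and falls whose groups did not overlap and whose log2 CPM averaged 3 or more. Hosts, CLIP examples and members set at 0 were chosen after their values were seen. Members and lists were chosen with earlier results of these data known. Letters paired the libraries only between deletion and control ESCs, where same-letter libraries deviated together from their group means in small RNA-seq (r = 0.104, 0.107 and 0.432) and RNA-seq (0.655, 0.13 and 0.359), each above 0.1. Hosts and microRNA positions came from RefSeq GRCm38.p6, the assembly that mm10 denotes. MicroRNA names were matched to 424 of 492 names through mean values within a relative tolerance of 0.005. snoRNA sequences were not used here.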

Additional observations from a re-analysis of the deposited data

Results flagged for a closer look

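The interaction test of edgeR (quasi-likelihood, Benjamini-Hochberg) called 10 of 126 tested members. That share is close to the 9.62% of all 4086 features called (7.46% lower). The replicate block left 5 members, library totals left 2 and scaling to the snoRNAs left 0. Leaving out 1 library at a time gave 0 to 62 members lower. Negative values mean a more negative deletion over control log2 value in iNs than in ESCs. The value was -1.40 ± 0.32 (SE, adjusted p = 0.0136) for Snora31, -1.22 ± 0.28 (adjusted p = 0.0134) for Snord87, -1.16 ± 0.29 (adjusted p = 0.0222) for Snora21 and -1.13 ± 0.29 (adjusted p = 0.0225) for Snord100. It was -0.99 for Snord50b, -0.96 for Snord12, -0.95 for Snord37, -0.93 for Snord38a, -0.93 for Snord70 and -0.90 for Snord82, with adjusted p-values of 0.0225 to 0.0494.

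Snora21, in Rpl23, had 135, 136 and 133 counts in deletion iNs, 257, 239 and 237 in control iNs, 183, 223 and 203 in deletion ESCs, and 151, 187 and 210 in control ESCs. Snord37, in Eef2, had 7098, 7381 and 6537 counts in deletion iNs, 9974, 9851 and 12666 in control iNs, 10099, 11731 and 12430 in deletion ESCs, and 9884, 8995 and 11098 in control ESCs. In both the genotypes were apart in iNs and overlapped in ESCs.

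In RNA-seq the same test was passed by 6 snoRNP proteins, with values of -0.49 for Nolc1, -0.34 for Nop10, -0.33 for Ruvbl2, -0.28 for Ncl, -0.27 for Snu13 and -0.25 for Tgs1 (adjusted p = 0.0112 to 0.0482), where 13.5% of all genes were called (8.5% lower). Without deletion iN library B 2 of the 24 were called.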

How the results depend on the processing

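After the low-count filter 117 to 126 of the 128 members were tested, depending on the comparison, and the part of depth in this was not tested. Scaling moved the counts of the iN over ESC comparisons, and the tool, the filter and single libraries those of deletion ESCs over control ESCs and of the interaction, which scaling moved too. With library totals 28 members were higher in control iNs over control ESCs and 28 in deletion iNs over deletion ESCs. Scaled to the snoRNAs the counts were 45 higher and 41 lower in control cells, 48 and 46 in deletion cells, and 13 and 20 in deletion iNs over control iNs. In that last comparison 0 members were higher with the DESeq2 Wald test, DESeq2 size factors, genes only, merged host counts and the replicate block, and 0 snoRNP proteins were higher with the DESeq2 Wald test, no filter and the replicate block. In deletion ESCs over control ESCs members lower were 3 with the DESeq2 Wald test, 1 with all 12 libraries in 1 fit, 7 with no filter (and 1 higher), 2 with posterior mean counts, 1 with library totals and 2 with the replicate block, which also gave 2 hosts lower. For the interaction, members lower were 50 with the DESeq2 Wald test, 32 with DESeq2 size factors, 16 with genes only, 25 with no filter (1 higher), 17 with posterior mean counts (1 higher), 5 with the replicate block, 2 with library totals and 0 scaled to the snoRNAs. Hosts higher in the interaction were 2 with the DESeq2 Wald test and 3 with no filter. Of gene counts alone, deletion iNs, control iNs, deletion ESCs and control ESCs had box C/D shares of 11.5, 18.9, 32.3 and 33.4%, box H/ACA shares of 0.193, 0.337, 0.545 and 0.683%, scaRNA shares of 0.113, 0.174, 0.0246 and 0.0278%, and domain shares of 0.831, 1.08, 0.351 and 0.449%.

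Leaving out 1 library at a time gave 14 to 19 members higher and 79 to 90 lower in control iNs over control ESCs, 11 to 12 and 97 to 101 in deletion iNs over deletion ESCs, 0 to 2 and 78 to 94 in deletion iNs over control iNs, 0 to 1 and 0 to 8 in deletion ESCs over control ESCs, and 0 to 1 and 0 to 62 in the interaction. For hosts it gave 7 to 8 and 64 to 66, 8 to 9 and 67 to 68, 1 to 3 and 27 to 35, 0 and 0, and 0 to 3 and 17 to 25 in the same order. For snoRNP proteins it gave 1 and 23, 1 and 23, 0 to 1 and 4 to 8, 0 and 0, and 0 and 2 to 6.

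Scaled to the snoRNAs, these turned in deletion iNs over control iNs: AF357341 to 0.30, AF357425 0.36, Scarna3a 0.05, Scarna3b 0.04, Scarna9 0.29, Snora33 0.12, Snord2 0.17, Snord22 0.08, Snord34 0.06, Snord37 0.01 and Snord64 0.19. In control iNs over control ESCs AF357428 turned to 0.96, DQ267102 0.66, Gm22981 0.88, Gm25854 0.77, Scarna6 0.09, Snord14d 0.72, Snord80 0.59 and Snord87 0.02. In deletion iNs over deletion ESCs AF357428 turned to 1.1, DQ267102 0.63, Gm22981 0.56, Gm25854 1.2, Scarna2 1.58, Snora21 0.83, Snora30 0.98, Snora36b 1.39, Snord13 1.79, Snord14d 0.00, Snord22 1.53, Snord37 0.71, Snord64 1.75 and Snord80 0.12. With library totals in that comparison Gm25854 turned to 0.06, Scarna2 0.46, Snora36b 0.28, Snord13 0.66, Snord22 0.43 and Snord64 0.65. Merged with their hosts, Snora81 turned to -3.33, -4.10 and -0.51 in control iNs over control ESCs, deletion iNs over deletion ESCs and deletion iNs over control iNs, and Snord68 to -1.15 and -2.57 in the first and second of these. The directions of these members depended on the scaling or on the merging of counts, and the cause of the turns was not tested. Of 155 named results, 72 kept direction and call under all 22 settings.

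In the other comparisons letters did not pair the libraries (r of same-letter small RNA libraries -0.164 to 0.135 in control cells, -0.275 to 0.034 in deletion cells and -0.067 to -0.037 in iNs), and the replicate block changed the counts of calls only as given above.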

Other observations

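RefSeq lists 108 further snoRNA genes with a total of at least 50 that carry other symbols. They held 2.78 ± 0.06% of small RNA counts in deletion iNs, 3.74 ± 0.18% in control iNs, 9.07 ± 0.69% in deletion ESCs and 9.06 ± 0.98% in control ESCs (SD, n = 3 each), an order like that of the box C/D members. By gene the picture differed. In control iNs over control ESCs 51 of 98 tested rose and 38 fell with edgeR's quasi-likelihood test (median log2 fold change 1.31). Of all features 38.0% were called higher and 33.2% lower there. In deletion iNs over deletion ESCs 45 of 92 rose and 43 fell (median 0.35), against 46.4% higher and 31.4% lower of all features. Scaled to the snoRNAs, 59 rose and 16 fell in control cells, and 56 rose and 19 fell in deletion cells. Between deletion and control iNs 33 of 96 fell and 0 rose (median -0.40), where 47.2% of all features were called (24.3% higher, 22.9% lower). Scaled to the snoRNAs, 11 fell and 13 rose.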
